A study of Mus musculus with 158 samples.

Results

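The regions described here are stretches of the mouse genome where chromatin was open in liver, kidney and lung and where no B cell data set called it open. They were chosen from DNase-seq hotspots, which are intervals with more DNase I cleavage than their surroundings. Hotspots of 20 adult sets that overlapped by 1 bp or more were merged on the autosomes, which gave 714403 regions. A region was kept when it held a hotspot in all 15 liver, kidney and lung sets and in none of the 5 B cell sets. This left 8329 regions, 1.17% of all and 19.7% of the 42366 regions that were open in every solid organ set. They are called the shared solid organ regions below, and together they span 9.73 Mb.

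The study mapped DNase I accessibility in F1 hybrid mice that were 8 weeks old. Each hybrid came from a C57BL/6J dam (B6) and a sire of 1 of 5 other inbred strains. The hybrids are named after the sire as B6x129, B6xC3H, B6xCAST, B6xPWK and B6xSPRET. The C3H sire (C3H/HeJ) is a classical laboratory strain, and the PWK (PWK/PhJ), SPRET (SPRET/EiJ) and CAST (CAST/EiJ) sires are wild-derived. All groups therefore carry 1 B6 genome. Whole liver, kidney and lung were taken, and B cells were enriched from femoral bone marrow of female mice by removing cells with CD43 or CD11b. The hotspots of each hybrid and tissue were called once on pooled samples, so each of the 20 sets is 1 value without replicates of its own, and the 5 hybrids are the only repeats of a tissue. Solid organ tissue was often pooled from several mice and holds a mixture of cell types, so a site open in all 3 organs may be open in different cells of each, and fewer cells of a type cannot be told apart from less accessibility per cell. Hotspots of a B6xCAST embryonic stem cell line (mESC), for DNase-seq and for CTCF ChIP-seq, and 17 RNA-seq samples of the adult tissues were used as measures that had no part in the choice.

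A region that nucleosomes leave free can be cut by DNase I, and most such sites are promoters or enhancers bound by transcription factors. Epithelium, endothelium and fibroblasts occur in all solid organs, attach to neighbors and to a basement membrane, and use factors such as the TEAD, NFI, AP-1 and C/EBP families. Developing B cells in the marrow rely on PU.1, EBF1, RUNX1 and E proteins.

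Sequences of 7 shared solid organ regions are shown as examples, beside genes that recur below and, for Oplah, at the region with the highest minimum score of all. Each is 200 bases of the plus strand of mm10 (GRCm38) without any annotated exon, as near as possible to the stretch that was open in all 15 solid organ sets. Capitals mark matches, on either strand, to the letters TTGGCA (NFI site), ACATTCC (TEAD), TGTTTAC (forkhead), CAGCTG (E-box), GGGCGG (SP/KLF), TGANTCA (AP-1) and TTGCNNAA (C/EBP). Matches may overlap.
Ccn1, upstream, chr3:145650112-145650311: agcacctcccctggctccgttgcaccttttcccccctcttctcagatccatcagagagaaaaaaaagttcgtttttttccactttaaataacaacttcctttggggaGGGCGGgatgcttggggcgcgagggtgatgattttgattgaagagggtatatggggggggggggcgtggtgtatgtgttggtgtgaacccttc
Cavin2, upstream, chr1:51288926-51289125: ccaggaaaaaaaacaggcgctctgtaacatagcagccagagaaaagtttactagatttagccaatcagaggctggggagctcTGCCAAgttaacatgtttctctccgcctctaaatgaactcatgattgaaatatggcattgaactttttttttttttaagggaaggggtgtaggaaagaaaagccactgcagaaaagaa
Tie1, upstream, chr4:118490062-118490261: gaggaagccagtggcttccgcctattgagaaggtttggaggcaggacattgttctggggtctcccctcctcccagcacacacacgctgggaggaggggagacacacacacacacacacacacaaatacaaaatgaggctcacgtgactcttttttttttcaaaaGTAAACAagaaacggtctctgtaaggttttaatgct
Col4a1, intron, chr8:11279390-11279589: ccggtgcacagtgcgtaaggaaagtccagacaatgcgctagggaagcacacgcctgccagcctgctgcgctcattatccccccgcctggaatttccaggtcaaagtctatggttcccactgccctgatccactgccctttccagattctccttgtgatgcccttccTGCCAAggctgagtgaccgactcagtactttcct
Ephb4, upstream, chr5:137349909-137350108: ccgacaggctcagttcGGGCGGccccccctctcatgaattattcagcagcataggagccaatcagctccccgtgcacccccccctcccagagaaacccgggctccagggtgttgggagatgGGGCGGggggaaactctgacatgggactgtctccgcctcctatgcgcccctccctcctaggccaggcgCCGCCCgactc
Alb, upstream, chr5:90460697-90460896: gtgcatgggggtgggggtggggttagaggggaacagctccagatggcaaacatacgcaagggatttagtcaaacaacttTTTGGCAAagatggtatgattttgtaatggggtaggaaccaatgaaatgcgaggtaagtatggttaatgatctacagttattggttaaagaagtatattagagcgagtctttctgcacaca
Oplah, intron, chr15:76307390-76307589: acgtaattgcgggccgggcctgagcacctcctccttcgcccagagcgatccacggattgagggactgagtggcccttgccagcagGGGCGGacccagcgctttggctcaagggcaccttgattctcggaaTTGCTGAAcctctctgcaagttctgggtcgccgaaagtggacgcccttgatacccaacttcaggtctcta

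In these windows the NFI site appeared beside Cavin2, in the Col4a1 intron and beside Alb, where it lies inside a C/EBP match. A forkhead match lay beside Tie1. The GGGCGG letters were found once beside Ccn1 and 3 times beside Ephb4. Windows taken in the same way at Pard3, Fermt2, Bmpr1a, Sfrp1 and Hopx held no match to these letters and are not shown. A match is a description of the letters and does not show that a factor was bound.

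Regions just outside the rule were fewer than the regions inside it. The regions open in 14 solid organ sets and no B cell set numbered 4124, of which 1090 lacked only the B6xC3H lung set and 1053 lacked only the B6xSPRET liver set. Another 1627 regions were open in all 15 solid organ sets and in 1 B cell set, and in 892 of these the single B cell set was B6xCAST. Those lone B cell hotspots had a median score of 2.49 and a median width of 158 bp, where the score is the −log10 of the false discovery rate (FDR), runs from 1.3 at the 5% FDR limit and stops at a ceiling of 100. Inside the rule, the lowest of a region's 15 scores had a median of 3.54 and ran from 1.31 to 70.8, and the next lowest had a median of 5.40. In the regions with 14 solid organ sets the lowest score of those sets had a median of 2.09. By comparison, 27339 regions were open in all 20 sets and 2433 were open in all 5 B cell sets and no solid organ set.

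**Figure D1:**
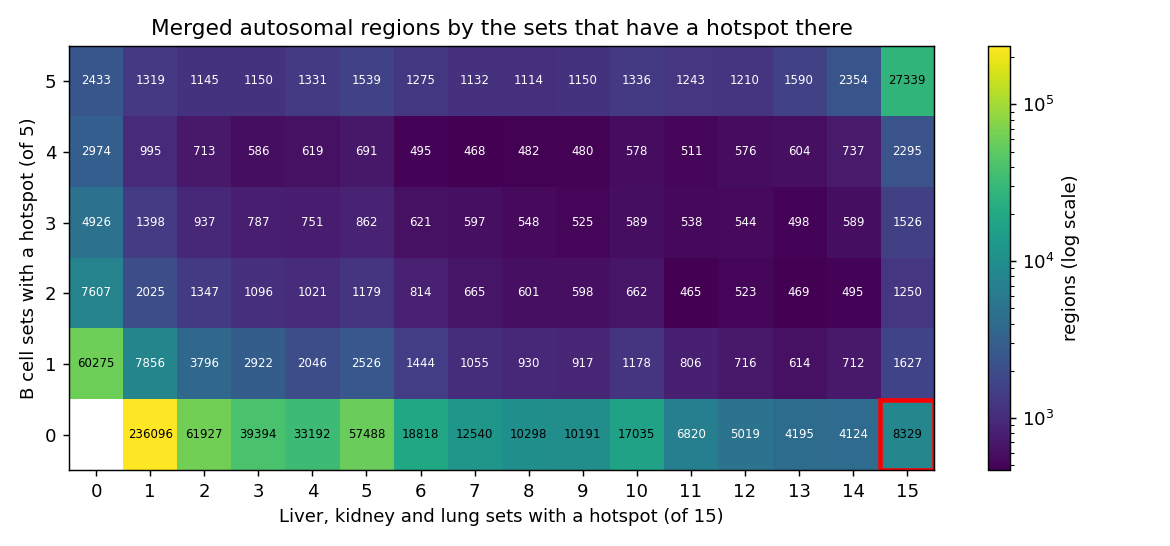
Number of merged autosomal regions (color, log scale, and printed count) by the number of liver, kidney and lung sets with a hotspot (x axis, of 15) and the number of B cell sets with a hotspot (y axis, of 5). The red frame marks the 8329 shared solid organ regions, and the cell at the upper right holds the 27339 regions open in all 20 sets.

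Set size differed between tissues. The B cell sets held 76055 to 151020 autosomal hotspots over 28.2 to 66.9 Mb, and the solid organ sets held 147871 to 286482 over 42.7 to 126 Mb. The hotspot files carry no read counts, so the depth behind a score is not known from them. When only the 75000 highest-scoring hotspots of every set were used, 2150 regions met the rule, which was 11.1% of the 19378 regions open in all 15 solid organ sets. Marker genes of the tissues followed the labels only in part, as counts of genes with a hotspot within 1 kb of a start. Of 29 B lineage genes, 24 to 26 had one in the B cell sets, and of 10 kidney genes 9 to 10 had one in kidney and 0 to 1 in B cells. All 9 hepatocyte genes had one in every liver set, but 6 to 7 also had one in kidney and 3 to 6 in lung. The B lineage genes also had one in 14 to 24 cases in liver, 16 to 18 in kidney and 21 to 24 in lung, so this list set the tissues apart weakly. Of 20 myeloid, T and NK cell genes, 6 to 15 had one in the B cell sets and 5 to 18 in the solid organ sets. Of 30 endothelial genes, 12 to 18 had one in the B cell sets and 19 to 30 in the solid organ sets. Whether blood cells in the organs, or other cells in the B cell sets, affected the choice of regions was not tested.

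The lack of B cell hotspots carried over to hybrids that had no part in the choice. Regions were chosen again on 4 hybrids and then looked up in the fifth, which gave 8755 to 10592 regions in each of the 5 rounds. In the hybrid left out, a solid organ hotspot was found in 96.6% ± 4.47 of them in liver, 98.3% ± 1.72 in kidney and 95.7% ± 4.91 in lung (SD, n = 5 hybrids). A B cell hotspot was found in 3.63% ± 3.60. By hybrid the B cell share was 9.68% for B6xCAST, 3.92% for B6xPWK, 2.44% for B6x129, 1.41% for B6xSPRET and 0.687% for B6xC3H. The same order held for the number of hotspots in the B cell sets, from 151020 in B6xCAST to 76055 in B6xC3H. Over all merged regions the B cell sets of the same hybrids reached 8.42% to 18.1%, and in each hybrid the share among the chosen regions lay below that of all regions. The chosen regions lack a B cell hotspot in the other 4 hybrids by the rule and all regions do not, so these shares are not like for like. The 5 rounds share hybrids, so they are described without a test.

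**Figure D2:**
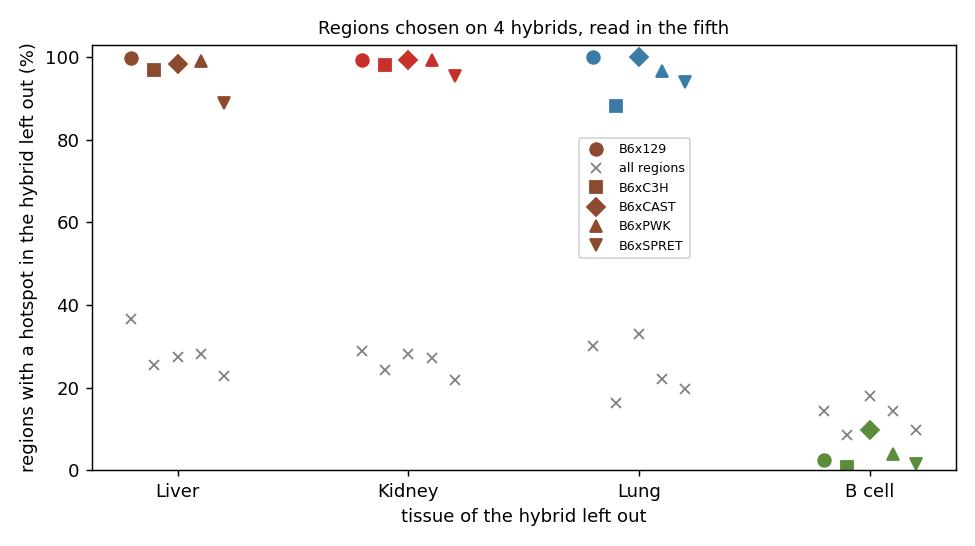
Percent of regions with a hotspot in the hybrid left out (y axis) for the 4 tissues (x axis), with 1 symbol per hybrid. Colored symbols are regions chosen on the other 4 hybrids, gray crosses are all merged regions. The solid organ symbols lie at 88.2% or higher and the B cell symbols at 9.68% or lower.

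The median width of the shared solid organ regions was 928 bp. It was 232 bp for all regions, 1212 bp for regions open in all 20 sets and 512 bp for regions open only in the B cell sets. A merged region is the union of its hotspots, so a rule that asks for more sets tends to give wider regions. These widths are therefore not like for like. The shared solid organ regions were not solid blocks. In 7570 of them at least 1 base was covered in all 15 solid organ sets, and the longest such stretch had a median of 189 bp. The other regions were joined by hotspots that overlapped in a chain. By the rule they did not overlap a B cell hotspot. The median distance to the nearest one was 3940 bp, 16.9% had one within 1 kb and 0.552% lay over 50 kb away. The same distances were not computed for other regions, so these values do not set the regions apart.

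Liver gave the highest scores. The median score of the shared regions averaged 48.2 over the liver sets, 19.8 over kidney and 16.5 over lung. Scores of single genes below were not scaled for this. The share of the shared regions at the score ceiling was 33.6% ± 6.62 in liver, 5.90% ± 2.63 in kidney and 2.73% ± 3.92 in lung (SD, n = 5 sets each). All hotspots of the same sets were at the ceiling in 12.6% ± 2.07 of cases in liver, 4.48% ± 1.13 in kidney and 2.94% ± 1.48 in lung. The liver values did not overlap those of the other organs, with 23.1% in the lowest liver set and 9.62% in the highest set outside liver. Median hotspot widths overlapped between organs, at 473 to 694 bp in liver, 404 to 512 bp in kidney and 317 to 548 bp in lung. No region was at the ceiling in all 15 sets, 3757 were at it in none, and 1020 were at it in all 5 liver sets and in no set of another organ. The weakest set was most often B6xC3H lung, which gave the lowest score of 2955 regions and was also the smallest solid organ set.

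**Figure D3:**
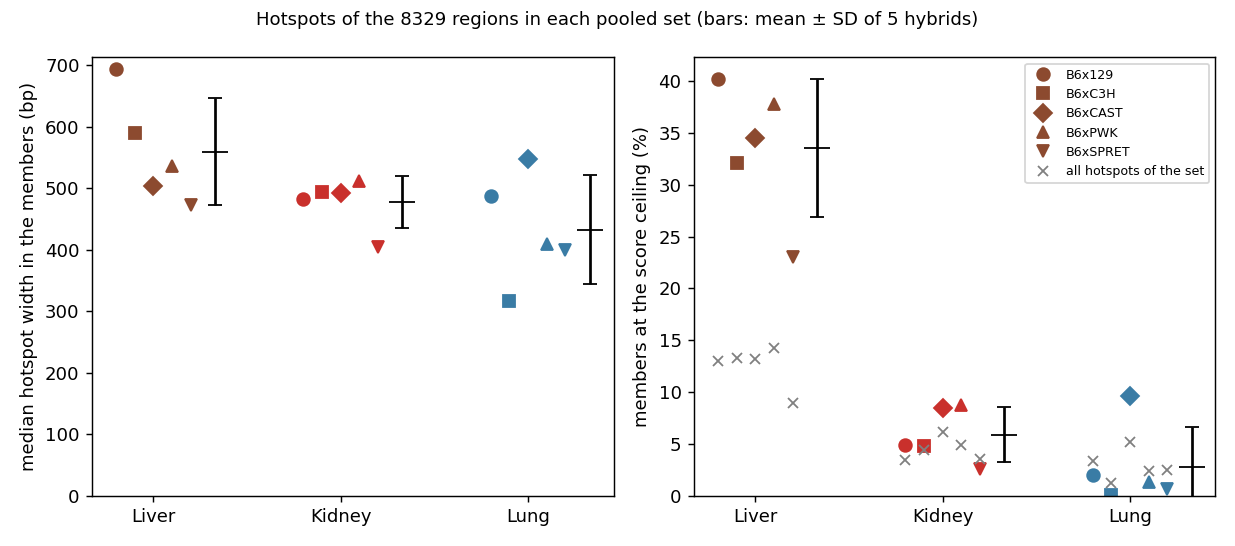
Left, median hotspot width (bp) in the 8329 shared solid organ regions for each organ (x axis). Right, percent of these regions at the score ceiling of 100. Each symbol is 1 hybrid, black bars give the mean ± SD of 5 hybrids (the lower end for lung at the right is cut off at 0), and gray crosses give all hotspots of the same set. The liver symbols at the right lie between 23.1% and 40.3%.

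Sites open in all 3 organs were not equally strong in them. Scores of the 8329 regions were ranked within each set and compared between sets as a description, since all sets share the same regions and scores rise with depth. Spearman's rho averaged 0.867 over the 10 pairs of liver sets, 0.834 over kidney pairs and 0.743 over lung pairs, and no pair within an organ was under 0.662. Between organs it averaged 0.205 for liver and kidney, 0.219 for kidney and lung and 0.0926 for liver and lung, with a highest value of 0.294 over all pairs between organs. Different organs of the same hybrid averaged 0.192 and organs of different hybrids 0.168. The order of strength was thus shared within an organ across hybrids and hardly between organs.

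**Figure D4:**
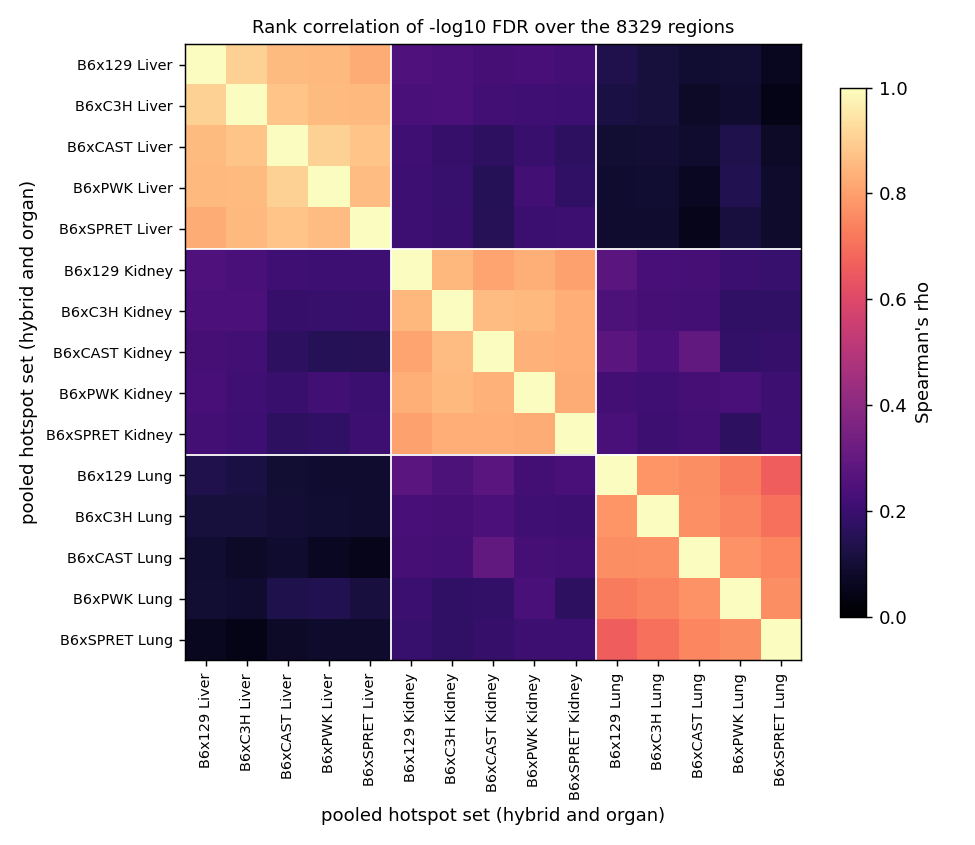
Spearman's rho (color) of the −log10 FDR over the 8329 shared solid organ regions between each pair of the 15 solid organ sets, ordered by organ (both axes). The 3 blocks along the diagonal are pairs within an organ, at 0.662 to 0.906, and pairs between organs lie at 0.0445 to 0.294.

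By mean rank, 1216 regions were led by liver, 854 by kidney and 1043 by lung, where leading means a mean rank at least 20 percentage points above that in each other organ. The remaining 5216 (62.6%) had no leading organ. In windows away from starts the forkhead motif was present in 10.3% of regions led by lung, 7.83% of those led by liver, 5.51% of those led by kidney and 7.59% of those with no leading organ. The C/EBP motif was present in 20.5%, 18.2%, 13.1% and 18.3% in the same order, so kidney was low and the other classes lay close together. The NFI site was spread evenly, at 29.99% in regions led by liver, 29.6% in those led by kidney and 31.0% in those led by lung. HNF4 letters, CAAAGTCCA, were found in 1.23% of the regions led by liver, 0.896% of those led by kidney and 0.731% of those led by lung, and these shares rest on 14, 7 and 7 windows.

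The strongest shared solid organ region by its lowest score lay over starts of Oplah, which encodes 5-oxoprolinase of the glutathione cycle (chr15:76305831-76307948). It scored 100 in all 5 liver and all 5 kidney sets. In lung it scored 70.8 in B6xC3H, 98.4 in B6xPWK and 100 in the other 3 hybrids. The next 9 in the same order had lowest scores of 57.6 to 66.9, and all 9 had it in a lung set. Of these 9 regions, 7 lay 9669 bp or more from a protein-coding start, in introns or between genes. The other 2 lay at starts of Tcaf1, which encodes a protein associated with TRP channels, and of Sardh, the mitochondrial enzyme that converts sarcosine to glycine.

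Tcaf1 (chr6:42691789-42693756) was strongest in kidney. Its liver scores were 63.0 in B6xSPRET, 64.3 in B6xPWK, 86.3 in B6xCAST and 100 in the other hybrids. All 5 kidney sets scored 100, and the lung sets scored 100 in B6x129, B6xCAST and B6xPWK, 61.0 in B6xC3H and 83.0 in B6xSPRET. Another of the 10 lay in an intron of Nfia, which encodes a member of the NFI family, 9669 bp from its nearest start.

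Most shared solid organ regions were distal. A protein-coding start lay within 1 kb of 763 of them (9.16%, 95% Wilson interval 8.56 to 9.80), against 5.05% of all regions, 39.1% of regions open in all 20 sets and 2.71% of regions open only in the B cell sets. Of the rest, 3927 were in introns, 3352 between genes and 287 in exons by their middle base. Their median distance to a start was 25461 bp, close to the 25152 bp of regions open only in B cells and far from the 5433 bp of regions open in all 20 sets. These and the following intervals cover counting error only. The regions at starts were less often CpG-rich than those open in every set. In the middle 300 bp, 18.9% of them had over 55% GC and a CpG ratio over 0.65. The share was 53.2% of the regions open in all 20 sets that lay at starts. Over all merged regions at starts it was 21.9%, near that of the shared solid organ regions.

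Some of these sites were also open in embryonic stem cells, which are neither solid organ nor blood. An mESC DNase hotspot overlapped 1843 shared solid organ regions (22.1%, 21.2 to 23.0), against 9.47% of all regions, 89.0% of regions open in all 20 sets and 3.33% of regions open only in B cells. Region width differs between these classes, so the middle 300 bp were also compared, and there the shares were 17.7%, 8.87%, 77.4% and 2.84%. At starts, 53.9% of the shared solid organ regions overlapped an mESC DNase hotspot, beside 44.5% of all regions at starts. Away from starts the shares were 18.9% and 7.61%. With the 75000 highest-scoring hotspots of each set the share was 32.8%, beside 21.5% of all regions chosen that way.

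CTCF anchors chromatin loops and binds largely the same sites in most cells. An mESC CTCF hotspot overlapped 1004 shared solid organ regions (12.1%, 11.4 to 12.8), against 7.95% of all regions, 67.2% of regions open in all 20 sets and 2.22% of regions open only in B cells. In the middle 300 bp the shares of the shared solid organ regions and of all regions were 8.81% and 7.42%. With the 75000 highest-scoring hotspots of each set they were 16.9% and 17.1%, so the excess over all regions was not seen there. The CTCF letters CCANNAGNNGGC stood in 3.17% of their windows, 3.97% of all windows and 19.03% of windows of regions open in all 20 sets.

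Letters of NFI, TEAD and forkhead factors were among those more frequent in the shared solid organ regions than in the other classes. In the middle 300 bp the NFI site was present in 29.4% (28.5 to 30.4) of the shared solid organ regions, 20.5% of all regions, 13.7% of regions open in all 20 sets and 12.5% of regions open only in B cells. The TEAD motif was present in 7.56%, 5.22%, 3.52% and 2.75% of the same classes. The forkhead motif was present in 7.40%, 5.60%, 3.45% and 2.84%.

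The E-box CAGCTG, read by E proteins and other bHLH factors, stood in 24.6% of the shared solid organ regions, 17.6% of all regions, 16.9% of regions open in all 20 sets and 18.3% of regions open only in B cells. The C/EBP motif was present in 17.4% of the shared solid organ regions and 14.9% of all regions. AP-1 differed less, with 12.4% and 11.2%. The full NFI palindrome, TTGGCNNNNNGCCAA, was rare, with 24 shared solid organ regions (0.288%) against 0.121% of all regions and 0 of the 2433 regions open only in B cells, where a count of 0 allows a share of up to 0.123%. The HNF1 letters GTTAATNATTAA occurred in 17 shared solid organ regions (0.204%). Away from starts the shares were 0.211% of the shared solid organ regions and 0.0786% of all regions. They were 0.0180% of regions open in all 20 sets and 0% of regions open only in B cells.

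The letters of PU.1, RUNX, EBF1 and IRF had their highest shares in the regions open only in B cells. The PU.1 letters GAGGAAG were present in 11.7% of the shared solid organ regions, 12.3% of all regions and 26.3% of regions open only in B cells. For RUNX (TGTGGTT) the shares were 6.54%, 7.70% and 12.2%, for EBF1 (TCCCNNGGGA) 0.936%, 0.896% and 2.79%, and for IRF (GAAANNGAAA) 4.17%, 4.25% and 6.54%. The GATA letters AGATAA stood in 14.9%, 16.5% and 14.5%. The order of the NFI and TEAD shares was the same in windows of like GC content. In windows of 45% to 55% GC away from starts, NFI sites were found in 31.8% of the shared solid organ regions and 21.5% of all regions, and TEAD motifs in 7.68% and 5.42%.

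**Figure D5:**
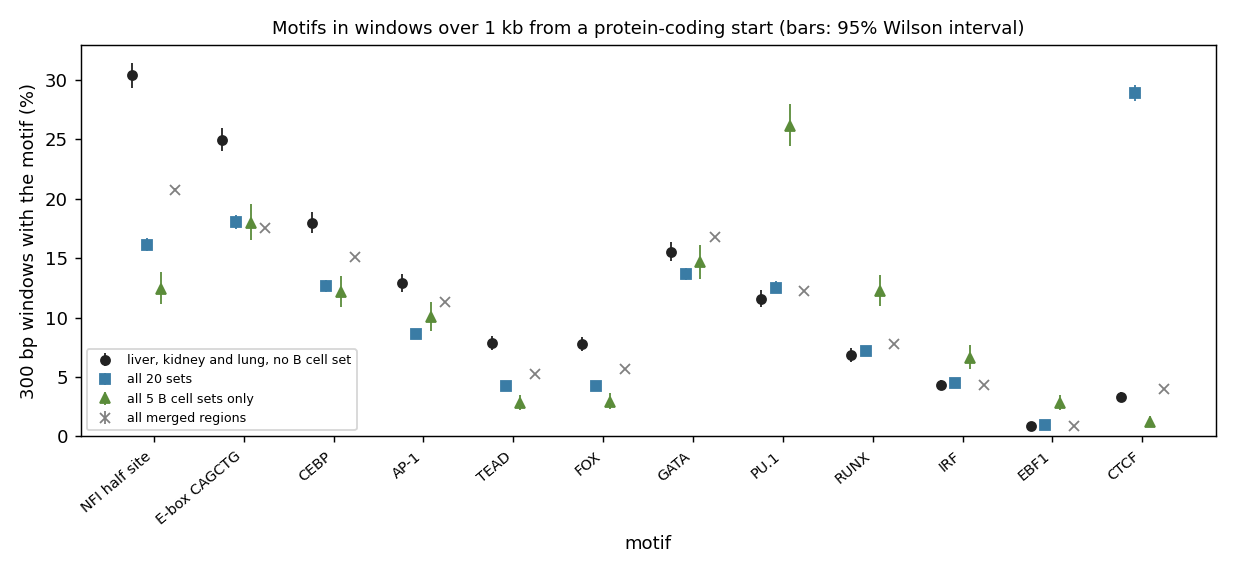
Percent of 300 bp windows with each motif (y axis) for 12 motifs (x axis), in regions over 1 kb from a protein-coding start. Symbols are the shared solid organ regions (circles), regions open in all 20 sets (squares), regions open only in the 5 B cell sets (triangles) and all merged regions (crosses), with 95% Wilson intervals. NFI sites reach 30.4% in the shared solid organ regions, PU.1 26.2% in the B cell regions and CTCF 28.9% in the regions open in all 20 sets.

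Some genes of contact and attachment had shared solid organ regions at their starts. Over all 20807 autosomal protein-coding genes, 926 (4.45%) had one within 2 kb of a start and 4361 (21.0%) had one within the gene or 10 kb of it. The lists below were chosen with earlier results of these data known and were not tested as sets. They hold 6 to 57 autosomal genes, so many of the shares rest on few genes. In 12 of the 18 lists the median gene is longer than the 17.6 kb of all genes, which leaves more room for a region inside or near the gene. The share at starts is therefore given first.

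Of 23 genes of the YAP/TAZ-TEAD (Hippo) pathway, which relays cell contact and tension to the nucleus, 5 (21.7%) had a shared solid organ region at a start. These were the matricellular targets Ccn1 and Ccn2, the scaffolds Wwc1 and Amotl1, and the factor Tead2. Ccn1 had a pair of them with 2 bp between. The one over its start (chr3:145645596-145651168) scored 79.9 in B6xC3H liver and 100 in the other 4 liver sets, 63.4 in B6xSPRET kidney and 100 in the other 4 kidney sets. In lung it reached 100 in B6xCAST and 86.0 in B6x129, with 57.4 for B6xPWK, 48.5 for B6xSPRET and 29.4 for B6xC3H. Liver and kidney were alike, lung was lower in 4 of 5 hybrids than the same hybrid's kidney, and yet lung had the widest hotspots there, at 4169 to 5455 bp against 1941 to 2857 bp. Tead1 and the kinase-binding protein Wwc1 had 5 and 9 shared solid organ regions in or near the gene, and Yap1 had 2.

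Of 15 basement membrane genes, 4 (26.7%) had a shared solid organ region at a start and 13 had one in or near the gene. Col4a1 and Col4a2 encode the chains of type IV collagen and share a promoter, which was covered by 1 such region (chr8:11311199-11314281). Its liver scores were 20.6 in the B6x129 set, 11.3 in the B6xC3H set and 6.16, 3.92 and 3.65 in the B6xCAST, B6xPWK and B6xSPRET sets. Its lung scores were 48.0, 8.96, 94.5, 10.97 and 16.5 in the same order of hybrids, higher than liver in 4 of 5 hybrids, and the organs overlapped. A further region lay at an internal Col4a1 start. It scored 92.2, 100, 83.1, 60.8 and 73.7 in the liver sets in that order, and 22.3, 8.67, 21.4, 10.5 and 5.01 in lung. Its liver and lung values did not overlap. Neither gene had a B cell hotspot within 1 kb of any start.

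Of 30 endothelial markers, 6 had a shared solid organ region at a start, namely Cldn5, Clec14a, Eng, Flt1, Tek and Tie1, and all but Eng lacked a B cell hotspot at every start. Tie1, an endothelial receptor kinase that works with the angiopoietin receptor Tek, scored 71.2 to 100 in liver, 28.4 to 47.9 in kidney and 30.7 to 100 in lung (chr4:118489593-118491041). Liver and kidney values did not overlap. Clec14a, an endothelial lectin, was weakest in liver, where B6x129 gave 30.01, B6xPWK 18.4 and the other hybrids 6.92 to 9.75, and its kidney values of 43.9 to 100 lay above all of these. The caveola coat gene Cavin2 was the 1 of 6 caveola genes with such a region at a start, at 34.4 to 100 in liver, 24.6 to 84.5 in kidney and 22.1 to 100 in lung.

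Receptor kinases had the highest share at starts among the lists. It was 8 of 29 (27.6%), made up of Axl, Ephb3, Ephb4, Fgfr2, Flt1, Met, Tek and Tie1. Ephb4, a receptor for ephrin-B2 on neighboring cells, scored 100 in all liver and kidney sets and 100, 31.9, 100, 75.9 and 100 in lung, in the order B6x129, B6xC3H, B6xCAST, B6xPWK and B6xSPRET. Fgfr2, the epithelial receptor of fibroblast growth factors, had 19 shared solid organ regions in or near the gene, the most of any gene in the lists, but its annotated span of 2960900 bp is far longer than that of the other genes. Egfr had 5 and Ror1 had 7.

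Of 57 transcription factors of epithelial and stromal cells, 10 (17.5%) had a shared solid organ region at a start, among them Gli2, Irx1, Irx2, Nr2f2, Rarb and Prdm16, which lacked a B cell hotspot at every start. The NFI genes Nfib, Nfix, Nfia and Nfic had 7, 7, 6 and 2 such regions in or near the gene, and the mineralocorticoid receptor Nr3c2 had 8. Irx2 was weak in liver, at 9.83 to 36.3, and higher in lung, at 21.0 to 100, with overlap. Rarb, a retinoic acid receptor, was at 100 in all liver sets and at 12.5 to 89.1 in lung.

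Of the genes of the glucocorticoid response and clock, the clock factor Npas2 had a shared solid organ region at a start that scored 80.9 to 100 in liver, 34.0 to 100 in kidney and 21.7 to 100 in lung. Rora, a nuclear receptor of the clock, had one with 14.04 to 100 in liver, 25.8 to 56.2 in kidney and 4.73 to 60.3 in lung, so the organs overlapped for both genes. Among 31 adherens and tight junction genes, 4 had a region at a start (Cgn, Cldn3, Cldn5 and Pard3), and among 32 focal adhesion genes 3 did (Actn4, Fermt2 and Tns1). The TGF-beta and BMP list had 5 of 41 and the fibroblast list 2 of 24. The WNT and Notch list had 1 of 30, Sfrp1, a share of 3.33% that lies near that of all genes.

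Junction and focal adhesion genes had regions of high and low score. The polarity scaffold Pard3 (chr8:127062990-127069240) scored 100 in all liver sets, 28.8 to 87.5 in kidney and 27.5 to 100 in lung. Cingulin (Cgn), which links tight junctions to myosin, was at 100 in liver, 32.3 to 65.7 in kidney and 17.2 to 47.6 in lung, so its lung values lay below all of its liver values. The claudin gene Cldn3 was at 100 in liver, 39.7 to 100 in kidney and 15.01 to 100 in lung. The region at Cldn5, a claudin of endothelium, scored 3.94 in its weakest set. Fermt2, which encodes the integrin activator kindlin-2, was at 97.9 to 100, 19.6 to 100 and 17.6 to 84.5. Tns1, a focal adhesion protein with 8 shared solid organ regions in or near the gene, had a weak one at a start, with no value over 37.1.

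Beside the 4.45% of all genes, 0 of 20 myeloid, T and NK cell genes had a shared solid organ region at a start. The counts were 1 of 29 B lineage genes (3.45%) and 1 of 19 housekeeping genes (5.26%). As with the other short lists, these counts do not set the shares apart from that of all genes. The B lineage gene was Vpreb3, which encodes a protein of B cell precursors, with a region 802 bp from a start (chr10:75943859-75945019). That region was chiefly a liver site, at 83.9 in B6xCAST, 92.3 in B6xSPRET and 100 in the other 3 hybrids, and at 4.02 to 15.8 in kidney and 4.15 to 20.1 in lung. Vpreb3 also had a region open in all 20 sets at a start.

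Genes named for 1 organ also appeared. A shared solid organ region lay at a start of 2 of 9 hepatocyte genes (22.2%), beside 4.45% of all genes. The same held for 1 of 10 nephron genes (10.0%) and 1 of 10 lung epithelial genes (10.0%). The start of Alb, the plasma protein made by hepatocytes, lay in the widest shared solid organ region, 13025 bp (chr5:90460064-90473088). It scored 100 in all liver sets, where its hotspots covered 11312 to 12967 bp. In kidney it scored 100 in B6xC3H, 94.6 in B6xPWK, 61.4 in B6xCAST, 60.4 in B6x129 and 50.1 in B6xSPRET over 780 to 2027 bp, and in lung 13.6, 11.6, 36.1, 30.2 and 17.1 in the same order over 520 to 753 bp. Apoa1, an apolipoprotein gene of hepatocytes, scored 53.6 to 100 in liver, 5.47 to 8.73 in kidney and 2.35 to 17.6 in lung. Slc12a3 is the sodium-chloride transporter of the kidney's distal tubule. It had a region 1970 bp from a start that scored 100 in all liver sets, 32.3 to 100 in kidney and 20.6 to 48.0 in lung. The organ the gene is named for did not have the highest scores, but liver also lay above kidney over all shared solid organ regions. There the median score averaged 48.2 in liver sets and 19.8 in kidney sets. Hopx, a marker of lung alveolar epithelium, had 1 region at a start with 7.62 to 27.5 in liver and 12.3 to 61.4 in lung, and another 1773 bp from a start with 81.9 to 100 in liver and 2.97 to 95.9 in lung.

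Shared solid organ regions also gathered far from starts. Magi1, a junction scaffold, was the nearest protein-coding start of 17 of them, of which 11 lay in or near the gene. Myc, the growth regulator, was nearest to 16, and none of these was in the gene or within 10 kb. Next came Zfhx3 with 12, then Rora, Tgfbr3 and Wwc1 with 11 each, and Cadm1, Dlc1, Gm10295, Jarid2, Rbfox2 and Tns1 with 10 each. In all, 4616 genes (22.2%) were the nearest start of at least 1. Nearness does not show which gene a site acts on.

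A start that was open in the solid organs alone did not always leave the gene without an open start in B cells. Of the 738 genes with a shared solid organ region within 1 kb of a start, 309 (41.9%) had a B cell hotspot within 1 kb of a start, 221 of 738 had a region open in all 20 sets at a start, and 429 (58.1%) had no B cell hotspot at any. Over all autosomal protein-coding genes, 14387 of 20807 (69.1%) had a B cell hotspot at a start. Pard3, a polarity scaffold, and Met, the hepatocyte growth factor receptor, were among the genes with both kinds of start.

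RNA-seq was an independent measure of these genes, with a strong limit. The deposited expected counts summed to 283725 to 809337 per sample, and 73.7% to 90.4% of them fell in the 16.9% of genes that have an exon opposite an exon of another gene. The nonredundant read numbers that the study lists for these samples are far larger than the count totals. Levels are therefore not read as transcript abundance. The genes without such an exon are given separately, and whether their counts are free of this limit was not tested. Of the 738 genes with a shared solid organ region within 1 kb of a start, 99 had enough counts to be tested by edgeR's quasi-likelihood test of B cells (n = 5) against the mean of liver, kidney and lung (n = 4 each). At an adjusted p of 0.05, 43 (43.4%) were lower and 27 (27.3%) higher in B cells, with a median log2 difference of −0.46. Of all 4479 genes tested, 30.1% were lower and 32.8% higher, with a median of 0.01. The 99 passed a filter on low counts, so they do not stand for the 738.

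Among genes with no exon opposite another gene, 20 of 41 with a shared solid organ region were lower in B cells and 8 higher, beside 28.0% and 30.7% of the 1694 genes tested. The median log2 difference of the 41 was −1.45. Of these 41, 21 had no B cell hotspot at any start, and 9 of the 21 were lower and 3 higher. With opposite exons included, 21 of 44 genes without a B cell hotspot at a start were lower and 11 higher, and 22 of 55 genes with one were lower and 16 higher. The fit compares samples that the labels give as separate, and nothing says they came from separate mice, so the p-values may measure technical spread.

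The 10 called genes with the largest fall were picked by that fall, so their direction was fixed by the choice. A gene at 0 counts in B cells can pass the filter only through the organs. The p-values of these genes are therefore no further evidence of a fall. Of the 10, Lifr and Fads3 have no exon opposite another gene and kept their call without any 1 sample. Lifr, the receptor of leukemia inhibitory factor, was at 0 counts in all 5 B cell samples, at 1 to 14 in kidney, 0 to 7 in liver and 22 to 36 in lung (adjusted p = 1.5e-06 by edgeR). Fads3, a fatty acid desaturase family member, was at 0 to 3 counts in B cells, 9 to 22 in kidney, 100 to 199 in liver and 20 to 41 in lung (adjusted p = 1.8e-11 by edgeR). The B cell values lay below all others for Fads3. Alb and Emp2, a membrane protein of epithelia, also had no such exon, but lost their call without 1 sample.

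For Alb that was lung replicate 2 and for Emp2 liver replicate 4, after which a second tissue was at 0 counts in every sample and the adjusted p was 0.9999 for Alb and 0.9998 for Emp2 by edgeR. Alb was at 95 to 767 counts in liver and 0 to 1 elsewhere, and Emp2 at 20 to 118 in lung, 0 to 2 in kidney, 0 to 6 in liver and 0 in B cells. The other 6 were Phyhipl, F930015N05Rik, Nr2f2, Col4a1, Mafk and Mtus1, whose exons lie opposite those of another gene, and from which strand their counts came was not tested. Col4a1 was at 0 in B cells, 8 to 16 in kidney, 1 to 3 in liver and 19 to 32 in lung (adjusted p = 8.1e-08 by edgeR). The numbers tested in the gene lists were too small to read, with 3 of 3 basement membrane genes, 2 of 8 focal adhesion genes, 5 of 6 junction genes and 0 of 2 fibroblast genes lower in B cells, beside 30.1% of all genes tested. Tead2 was the 1 Hippo gene tested and was higher in B cells, at 74 to 214 counts against 0 to 17 elsewhere (adjusted p = 8.0e-12 by edgeR), and it too has an exon opposite another gene.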

How the data were processed

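The authors mapped DNase-seq and mESC ChIP-seq reads to mm10 (GRCm38) with BWA and to a genome of the sire's strain, and called hotspots with hotspot2 at an FDR of 5% on pooled samples. How the mESC samples were pooled is not given in the sources used here. The deposited hotspot score is the −log10 of the FDR within a set, which deeper sequencing raises, and sets were not scaled to each other. For RNA-seq the deposited values are RSEM expected counts and TPM from stranded libraries, and the annotation and strand setting used with RSEM are not given in the sources used here.

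The members and gene lists were chosen with earlier results of these data known. Hotspots of 20 adult sets were merged at an overlap of 1 bp. The choice used their presence in all of the sets, so scores, widths and counts from these sets are described without a test. Starts, exons and gene spans came from GENCODE for GRCm38, and exact motif letters were searched on both strands of the middle 300 bp of each region. A region was placed at a promoter if it lay within 1 kb of a protein-coding start. Shares carry 95% Wilson intervals, which cover counting error only. Spearman's rho was computed over regions as a description.

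After rounding, expected counts were tested in edgeR 4.0.16 (TMM, filterByExpr, quasi-likelihood test, Benjamini-Hochberg adjustment over all genes tested) in 17 samples. Alternatives used DESeq2 1.42.0 and limma 3.58.1, the latter on log2(TPM + 1), or added the hybrid as a covariate without the 1 B cell sample whose hybrid differs between the labels and the study's table. The test was checked on simulated data. Samples were grouped by their labels, and RNA replicate numbers were given in accession order.

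Members were named by 4 parts of a rule. These were up to 3 members within 2 kb of a start for each gene list, the 10 members whose lowest score was highest, the 10 genes (with ties) nearest to most members, and the 10 genes with a member at a start that fell most in B cells. Genes given only by count within a list, and single genes of a list set out by the number of members in or near them, were chosen after their values were seen. Sex chromosomes were left out by the rule. A gene of the lists is not reported here.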

Additional observations from a re-analysis of the deposited data

Results flagged for a closer look

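Of 43 groups of 4 or 5 values that were checked for a value far from the others with Dixon's ratio at 95%, 4 held one. Chance gives about 1 in 20 groups. The groups included RNA-seq counts, by tissue, of the genes with the largest fall in B cells, and none of those was flagged. The B6xSPRET kidney set covered 62.1 Mb, and the other kidney sets covered 77.2 to 83.1 Mb. In the same set the median hotspot width in the shared solid organ regions was 404 bp, against 482 to 512 bp. The B6xCAST lung set had 9.62% of the shared solid organ regions at the score ceiling, and the other lung sets had 0.0360% to 2.04%. When B6xSPRET was left out of the choice, its liver set had a hotspot in 88.9% of the chosen regions, and the other hybrids reached 96.9% to 99.9%.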

How the results depend on the processing

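Of 264 values computed under other settings, 193 stayed within their interval or within 1.5 times the main count, and 71 moved. With the 75000 highest-scoring hotspots of each set, 2150 regions met the rule, 17.4% of them lay at a start, 32.8% overlapped an mESC DNase hotspot and 16.9% an mESC CTCF hotspot. The motif shares that moved there were NFI site 27.6%, E-box 23.0%, SP/KLF 12.4%, EBF1 1.21% and HNF4 1.44%. At an FDR of 1% the shares were 10.4% at a start, 24.5% with mESC DNase, 13.5% with mESC CTCF and 10.6% with SP/KLF. Merging only at 100 bp gave 10.3% at a start, 23.1% with mESC DNase and 10.8% with SP/KLF. A start distance of 500 bp gave 8.07% and of 2 kb 11.7%. In the middle 300 bp, 17.7% held mESC DNase and 8.81% mESC CTCF.

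Windows of 200 bp, which hold fewer letters, gave NFI site 21.6%, TEAD 5.27%, forkhead 5.27%, E-box 17.8%, SP/KLF 7.56%, C/EBP 12.4%, AP-1 8.74%, PU.1 7.95%, RUNX 4.59%, CTCF 2.34%, EBF1 0.6003% and HNF4 0.804%. Windows of 500 bp gave 40.6%, 11.5%, 11.3%, 35.2%, 14.4%, 26.1%, 18.4%, 18.4%, 10.7%, 4.19%, 1.39% and 1.61% in the same order. Windows at the stretch open in all 15 sets gave NFI site 35.0%, TEAD 8.63%, forkhead 8.78%, E-box 28.9%, SP/KLF 11.97%, C/EBP 20.4%, AP-1 13.8%, CTCF 3.96% and HNF4 1.40%.

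Without 1 hybrid, the number of regions was 8755 to 10592, the share with mESC DNase 21.1% to 24.3%, with mESC CTCF 11.3% to 14.3%, with SP/KLF 9.75% to 10.7% and with the CTCF motif 2.94% to 3.73%.

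In RNA-seq, with no filter beyond a count above 0, 2186 genes were lower and 3140 higher in B cells, and 120 and 44 of those with a shared solid organ region at a start. With limma on log2(TPM + 1) these were 3012, 4141, 144 and 56. Among genes with no exon opposite another gene they were 475, 520, 20 and 8, from fewer genes tested. Without 1 sample they were 1282 to 1517, 1301 to 1665, 39 to 50 and 26 to 33. The cause of the other changes was not tested. No paired analysis was possible because the RNA replicate numbers follow accession order. A fit with the hybrid as a covariate, without 1 B cell sample, gave 1294, 1323, 42 and 26, of 4303 and 98 tested. The hotspot sets were not adjusted for their depth, which the files do not hold and which was not used here, so a region without a B cell hotspot is one not detected as open.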
